A study of Chlorocebus sabaeus with 12 samples.

Results

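Syndecans and glypicans are the main heparan sulfate proteoglycans of the cell surface, and they were followed here through every probe of the arrays that carried the gene name SDC1, SDC2, SDC3, SDC4, GPC1, GPC2, GPC3, GPC4 or GPC6. The rule found 11 probes for these 9 genes, among 41000 probes with 30982 names. The cells were COS-1, a kidney line of the African green monkey transformed with SV40, and they transiently expressed a mutant of human FXR for 24 h. FXR is the nuclear receptor for bile acids, and the mutants carry aspartate (S154D) or alanine (S154A) in place of a serine. The 4 groups had 3 arrays each: S154D with chenodeoxycholic acid (CDCA), S154D with DMSO, S154A with CDCA, and S154A with DMSO. CDCA is a natural bile acid and an FXR agonist; it was added for 24 h at 50 mM, as the labels give the dose, and the vehicle was 0.1% DMSO. All groups were transfected, and cells with wild-type FXR or without FXR were not analysed here. The series asks what phosphorylation means for FXR, an aspartate being a common stand-in for a phosphorylated serine and an alanine for one that cannot be phosphorylated.

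A proteoglycan of this kind is a core protein to which long heparan sulfate chains are attached on serines that stand before a glycine. Syndecans cross the membrane and can be shed by proteases, whereas glypicans are held by a lipid anchor. Their chains bind growth factors, chemokines, morphogens and lipoproteins and present them to receptors. SDC1, the syndecan of epithelia, hepatocytes and plasma cells, takes part in the uptake of lipoproteins by the liver and has been described as an FXR target gene there.

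SDC1 and SDC4 had 2 probes each, and the other members 1. Positions are those of the array annotation on the human build hg17; exon and UTR boundaries of that build were not used here. The brighter SDC1 probe, A_23_P16944, lies at chr2:20322963-20323022 on the minus strand. The other, A_24_P97129, is placed at chr2:20325679-20326789 on the minus strand, a span of 1111 bases that its 60 bases can cover only across a splice junction. It is shown whole because its first reading frame is open throughout and holds 3 serine codons that each stand before a glycine codon (capitals), the setting in which heparan sulfate is attached in syndecan ectodomains. The first 30 bases of the brighter probe and the dimmer probe of SDC4, which was well above background on some arrays only, are shown with it.
SDC1 A_24_P97129: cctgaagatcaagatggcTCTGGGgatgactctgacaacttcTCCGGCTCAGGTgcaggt
SDC1 A_23_P16944: accctgggccctgggctggaatcaggaata
SDC4 A_24_P373976: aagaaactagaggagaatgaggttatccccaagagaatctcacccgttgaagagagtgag

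The brighter SDC4 probe, A_23_P109034, lies at chr20:43387992-43388051 and the dimmer at chr20:43392496-43392555. The SDC3 probe is at chr1:31012334-31012393, that of GPC1 at chr2:241127108-241127167 and that of GPC2 at chr7:99412018-99412077. The neighbouring genes GPC4 and GPC3 are read on the X chromosome, GPC4 at chrX:132160949-132161008 and GPC3 by a probe whose blocks span chrX:132456099-132521288. The GPC6 probe is at chr13:93848796-93848855.

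Monkey RNA was hybridised to human probes, so a signal depends on how well a probe matches the monkey transcript, and levels are set against each other only within a probe. A level is log2 of the processed signal minus that of the array's 75th percentile. Of the 11 probes, 10 were well above background on all 12 arrays, and the dimmer SDC4 probe was on 8: 3 arrays of S154D with CDCA, 2 of S154D with DMSO, 2 of S154A with CDCA and 1 of S154A with DMSO. None was saturated. All 11 passed the filter on dim probes. The share of spots well above background was 61.6% to 79.8% per array. All 7 markers listed for COS-1 were well above background on every array, as were all 6 epithelial markers. So were 3 of 6 hepatocyte, 3 of 5 leukocyte and 2 of 5 plasma cell markers, while APOB, PTPRC and TNFRSF17 of these lists were on none. The transfected receptor, read by NR1H4, averaged 7.56 ± 0.13 in S154D with CDCA, 7.77 ± 0.27 in S154D with DMSO, 7.59 ± 0.13 in S154A with CDCA and 7.73 ± 0.16 in S154A with DMSO (log2 level, SD, n = 3 each), and it was called changed in none of the 5 comparisons. The labels do not say that the 3 arrays of a group came from separate cultures, so p-values measure the spread between arrays, which may be technical. The cells were measured in bulk, in which fewer cells expressing a gene and less RNA per cell cannot be told apart.

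**Figure D1:**
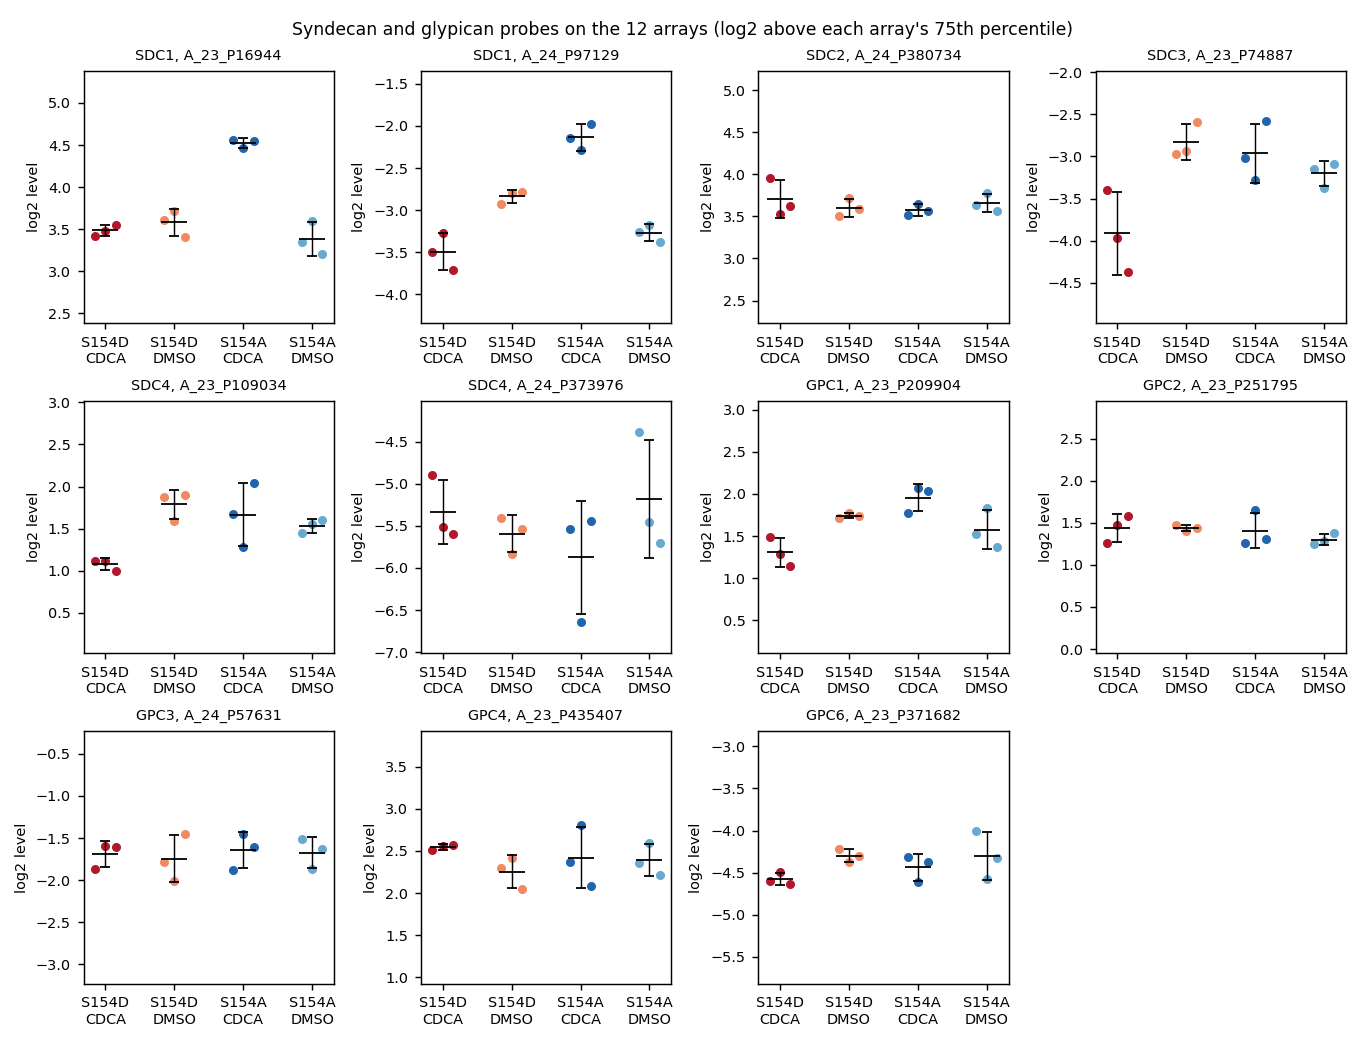
Level of each of the 11 syndecan and glypican probes (y axis, log2 of the processed signal above the array's 75th percentile, each panel 3 units high) in the 4 groups. Points are the 3 arrays, and the bar and whiskers are mean and SD. Both SDC1 probes stood highest in S154A cells with CDCA, and the panels of SDC2, GPC2 and GPC3 show groups at nearly 1 height.

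The first question was whether CDCA changed these genes in cells with S154A. SDC1 rose, and it was the only member called. On its brighter probe the level was 4.56, 4.46 and 4.55 on the arrays of S154A with CDCA, against 3.35, 3.60 and 3.20 with DMSO. The groups were separated by more than the whole range of either. The change was 1.14 ± 0.12 on the log2 scale (SE, 95% interval 0.87 to 1.41), a 2.20-fold rise (limma, adjusted p = 0.00528, two-sided), and it ranked at 9 by p among 20355 genes.

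The second SDC1 probe gave nearly the same change. Its level was -2.15, -2.29 and -1.97 with CDCA, against -3.26, -3.18 and -3.38 with DMSO. The change was 1.13 ± 0.13 (SE, limma over the 26898 kept probes, adjusted p = 0.0088). Of all kept probes 0.115% were called higher in this comparison. The arrays also allowed 2 contrasts within a slide for SDC1, and these gave 1.20 on slide 1 and 1.36 on slide 3. With slide as a fixed block the change of the brighter probe was 1.17 and missed the threshold (limma, adjusted p = 0.0706), as it did in a fit to the 2 groups alone (1.14, adjusted p = 0.113).

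SDC1 was 1 of 9 members called higher, against 0.128% of all genes tested, and 0 were called lower, against 0.00491%. It was 1 of 9 members whose arrays did not overlap between the groups, a count near the share of 11.7% over all genes. The median change of the 9 members was 0.11, beside -0.04 for all genes. The lipid-anchored GPC1, a coreceptor for fibroblast growth factors, came next, with levels of 1.77, 2.07 and 2.04 with CDCA against 1.52, 1.83 and 1.38 with DMSO. These overlapped, and the change of 0.38 ± 0.14 (SE) was not called (limma, adjusted p = 0.825). The other 7 members lay between -0.13 and 0.24, all with adjusted p over 0.9.

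In cells with S154D the bright SDC1 probe did not change detectably with CDCA. Its level was 3.42, 3.48 and 3.56 in S154D with CDCA, against 3.61, 3.72 and 3.41 with DMSO. The arrays overlapped, and the difference was -0.09 ± 0.12 (SE, 95% interval -0.36 to 0.18, limma, adjusted p = 0.643). That interval leaves out a rise of the size seen in S154A cells. The second probe read otherwise: it was at -3.49, -3.27 and -3.72 with CDCA, against -2.92, -2.80 and -2.78 with DMSO, and was called lower, with a change of -0.66 ± 0.13 (SE, limma over kept probes, adjusted p = 0.0272). Of all kept probes 4.52% were called lower here. After correction of each array for a trend on probe GC content the change of this probe was -0.37 (95% interval -0.67 to -0.07). It was not called (limma over kept probes, adjusted p = 0.205), but with that correction 0 of all genes tested were called in this comparison.

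SDC1 had 1 elevated group among the 4. Its mean level was 3.49 ± 0.07 in S154D with CDCA, 3.58 ± 0.16 in S154D with DMSO, 4.52 ± 0.06 in S154A with CDCA and 3.38 ± 0.20 in S154A with DMSO (SD, n = 3 each). In order of level S154A with CDCA came first, and the 3 other groups followed within 0.20 of one another, with overlapping arrays. On the second probe S154A with CDCA was again first, S154D with DMSO second, and the remaining groups overlapped at -3.49 ± 0.22 in S154D with CDCA and -3.27 ± 0.10 in S154A with DMSO.

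**Figure D2:**
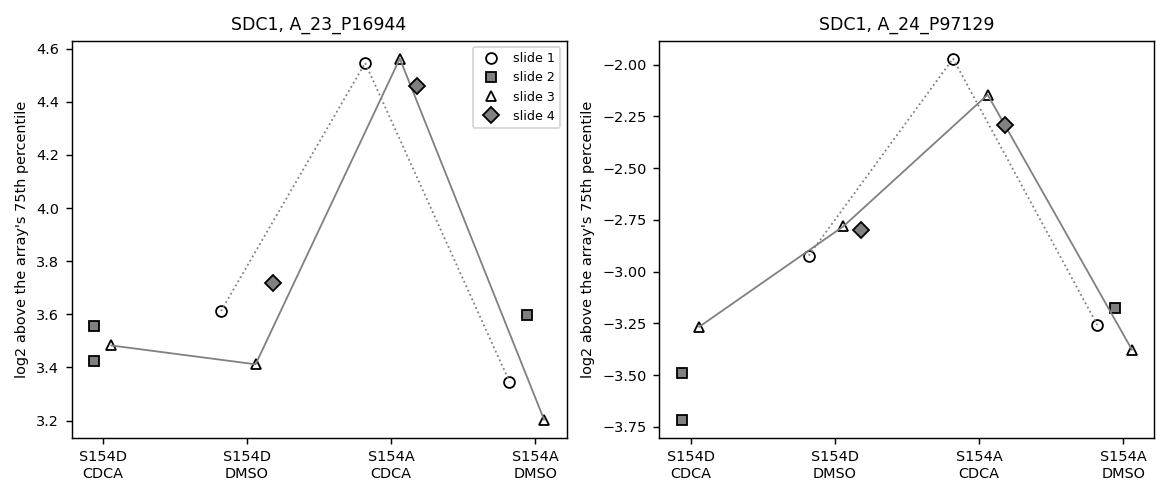
Level of the brighter (left) and dimmer (right) SDC1 probe (y axes, log2 above the array's 75th percentile, different ranges) on each of the 12 arrays, by group and slide. Lines join arrays of slide 1 (dotted) and slide 3 (solid), which held more than 2 groups. On both slides S154A with CDCA was the highest array for both probes.

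With CDCA present, SDC1 was lower in S154D than in S154A cells, by -1.04 ± 0.12 on the log2 scale (SE, 95% interval -1.31 to -0.77, limma, adjusted p = 0.00675), which is 2.05-fold. Slide 3, the only slide with both groups, gave -1.08. With slide as a fixed block the difference was -1.10 and missed the threshold (limma, adjusted p = 0.157), and in a fit to the 2 groups alone its adjusted p was 0.0605. SDC1 was 1 of 9 members called lower in S154D cells here, against 0.329% of all genes. The second SDC1 probe differed by -1.36 ± 0.13 (SE, limma over kept probes, adjusted p = 0.0022) and, after a correction on probe GC content, by -1.18 (adjusted p = 0.00641).

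With DMSO the SDC1 difference between S154D and S154A cells was 0.20 ± 0.12 (SE, 95% interval -0.07 to 0.47, limma, adjusted p = 0.997). On the brightest probe of each gene no member was called by limma, none had an unadjusted p under 0.05, and over all genes 0% were called, 880 of them (4.32%) having an unadjusted p under 0.05. The second SDC1 probe stood apart with DMSO, at -2.92, -2.80 and -2.78 in S154D against -3.26, -3.18 and -3.38 in S154A cells. These arrays did not overlap, and the difference of 0.44 ± 0.13 was not called (SE, 95% interval 0.14 to 0.73, limma over kept probes, adjusted p = 1); after the correction on GC it was 0.35. On the brightest probes, SDC3 and GPC2 were the 2 members whose arrays did not overlap, both with S154D above, against 11% of all genes.

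Whether CDCA acted differently in the S154D and the S154A cells was tested as an interaction, the response in S154D cells minus that in S154A cells. For SDC1 this difference was -1.23 ± 0.17 (SE, 95% interval -1.62 to -0.85, limma, adjusted p = 0.0381), and -1.29 within slide 3. On the second probe it was -1.79 ± 0.19 (SE, limma over kept probes, adjusted p = 0.0124). Of all kept probes 0.134% were called lower. SDC1 was the only member called, against 0.0933% of all genes called lower. Its call lay close to the threshold: the adjusted p was 0.0448 to 0.118 when 1 array was left out at a time, and it stayed under 0.05 only without replicate 1 of S154A with CDCA. On the brighter probe the call also ended with slide as a fixed block (-1.33, limma, adjusted p = 0.3) and with the replicate block (-1.23, adjusted p = 0.0775). It ended with the correction on GC too (-1.17, adjusted p = 0.0531), and it held under 9 of 29 alternatives. The second probe stayed called after that correction (-1.54, limma over kept probes, adjusted p = 0.0329).

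Among all genes, those whose levels followed the bright SDC1 probe most closely over the 12 arrays were RGS16, OSTalpha, SLCO2A1, FETUB and KRT86, with Pearson correlations of 0.97, 0.97, 0.96, 0.95 and 0.94. The arrays share 4 groups, and this is a description of the pattern. SDC1 was highest in S154A with CDCA, so choosing genes by this correlation favoured genes that rose with CDCA in S154A cells. The changes and p-values given below for CDCA in S154A cells are therefore not independent evidence of a shared response. OSTalpha, a subunit of the bile acid exporter and an FXR target, averaged 0.66 in S154D with CDCA, 0.47 in S154D with DMSO, 3.04 in S154A with CDCA and 0.48 in S154A with DMSO. Its rise with CDCA in S154A cells was 2.56 ± 0.18 (SE, limma, adjusted p = 0.000246). FETUB, a liver-secreted protease inhibitor, rose by 1.71 (adjusted p = 0.00412), and RGS16, a regulator of G protein signalling, by 0.90 (adjusted p = 0.0122). SLCO2A1, the prostaglandin transporter, at 0.44, and the hair keratin KRT86, at 1.33, were not called in that comparison (limma, adjusted p = 0.138 and 0.121).

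SDC3 and the brighter probe of SDC4 had another pattern, in which S154D with CDCA was the low group. SDC3, the syndecan of the nervous system, was at -3.39, -3.96 and -4.38 in S154D with CDCA, against -2.97, -2.93 and -2.59 in S154D with DMSO. Every CDCA array was below every DMSO array. The change was -1.08 ± 0.25 (SE, 95% interval -1.64 to -0.53), 2.12-fold lower (limma, adjusted p = 0.0324). In S154A cells the level was -3.02, -3.28 and -2.58 with CDCA and -3.14, -3.37 and -3.09 with DMSO, a difference of 0.24 ± 0.25 (SE, adjusted p = 0.937). The difference between the responses was -1.32 ± 0.35 and was not called (SE, limma, adjusted p = 0.0924).

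SDC4, which sits in focal adhesions and binds protein kinase C alpha, was at 1.11, 1.12 and 1.00 on its brighter probe in S154D with CDCA, against 1.87, 1.59 and 1.90 in S154D with DMSO. These groups did not overlap either. The change was -0.71 ± 0.17 (SE, 95% interval -1.09 to -0.33), 1.64-fold lower (limma, adjusted p = 0.0346). In S154A cells the level was 1.67, 1.29 and 2.04 with CDCA and 1.44, 1.56 and 1.61 with DMSO, which overlapped, with a difference of 0.13 ± 0.17 (SE, adjusted p = 0.946). The difference between the responses, -0.84 ± 0.24, was not called (SE, limma, adjusted p = 0.106).

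The dimmer SDC4 probe was at -4.90, -5.51 and -5.59 in S154D with CDCA, against -5.40, -5.83 and -5.54 with DMSO, a difference of 0.26 ± 0.39 (SE, limma over kept probes, adjusted p = 0.692). Its signal was 18.6 to 101 in scanner units over the 12 arrays. It passed the filter only through S154D with CDCA, the group in which all 3 arrays were well above background, so the filter partly fixed this difference and nothing is read from it.

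SDC2, the syndecan of mesenchymal cells that acts in fibronectin matrix assembly, was nearly level. It averaged 3.70 ± 0.23 in S154D with CDCA, 3.60 ± 0.11 in S154D with DMSO, 3.58 ± 0.07 in S154A with CDCA and 3.66 ± 0.11 in S154A with DMSO (SD, n = 3 each). Its 4 groups overlapped, and its changes with CDCA were 0.10 ± 0.13 in S154D and -0.08 ± 0.13 in S154A cells (SE). The array of S154D with CDCA that stood highest, at 3.96, was replicate 1.

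Of the 9 members, 2 were called lower and 0 higher with CDCA in S154D cells, SDC3 and SDC4. Over all genes 10.2% were called in this comparison, 3.65% lower and 6.55% higher. The arrays of 5 members did not overlap, against 33.7% of all genes: SDC3, SDC4, GPC1 and GPC6 below, and GPC4 above. The median over the 9 members was -0.09, beside -0.01 for all genes. With 1 array left out, both calls were lost without replicate 1 or 3 of S154D with DMSO or replicate 2 or 3 of S154D with CDCA, and the SDC4 call was also lost without replicate 3 of S154A with DMSO or replicate 1 of S154A with CDCA. The adjusted p then reached 0.118 for SDC3 and 0.124 for SDC4. The calls over all genes fell too, from 2077 to 1 and 0 without replicates 1 and 3 of S154D with DMSO. They fell to 790 and 0 without replicates 2 and 3 of S154D with CDCA. Without replicate 3 of S154A with DMSO 1033 were called, and without replicate 1 of S154A with CDCA 1242. The losses were thus not particular to SDC3 and SDC4.

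**Figure D3:**
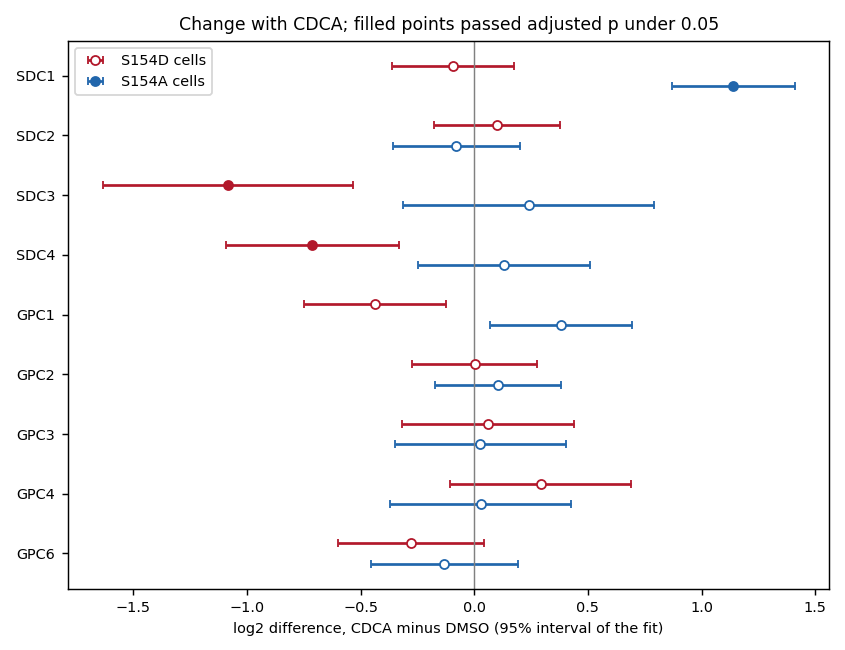
Change with CDCA (x axis, log2 difference CDCA minus DMSO) of the 9 members, read on each gene's brightest probe, in S154D cells (red, upper point of each pair) and S154A cells (blue). Whiskers are 95% intervals of the fit and filled points have an adjusted p under 0.05. SDC1 lies at 1.14 in S154A cells and -0.09 in S154D cells, whereas SDC3 and SDC4 are filled only in S154D cells.

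The change with CDCA in S154D cells moved with the base composition of the probe. The 4 member probes with 53.3% to 55% GC, those of SDC3, GPC1, the brighter of SDC4 and the dimmer of SDC1, had changes of -1.08, -0.44, -0.71 and -0.66. The 7 probes with 38.3% to 45% GC lay between -0.28 (GPC6) and 0.29 (GPC4), and 2 of these 7 were below 0. Among the 7 was the dimmer SDC4 probe, whose value of 0.26 the filter partly fixed, so it is not read here. Over the 20355 genes the change had a Spearman correlation of -0.56 with probe GC, a description across genes that share arrays, and in S154A cells one of -0.11. In S154A cells 0 of the 4 GC-rich member probes were below 0, and their median was 0.31.

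After each array was corrected for its smooth trend on probe GC, the change in S154D cells was -0.80 ± 0.24 for SDC3 (SE, limma, adjusted p = 0.167) and -0.44 ± 0.20 for SDC4 (adjusted p = 0.262). Neither was called, and over all genes 0 were called by limma after that correction, 3751 having an unadjusted p under 0.05. The rise of SDC1 in S154A cells was 1.13 ± 0.12 with the correction (SE, limma over kept probes, adjusted p = 0.00531), and the dimmer probe was at 1.17 (adjusted p = 0.00982). The summed linear level of the 6 epithelial markers also differed in S154D cells, at 97.9 to 113 with CDCA against 122 to 128 with DMSO, in multiples of the 75th percentile, and its part in the SDC3 and SDC4 values was not tested. Its genes went both ways there: CLDN4 was called lower (-0.69, limma, adjusted p = 0.0299) and TACSTD1 higher (0.52, adjusted p = 0.045), with KRT8 at -0.40, KRT18 at -0.17, KRT19 at 0.14 and CDH1 at 0.36. Of the other lists, the plasma cell marker IGHM was called higher (1.90 ± 0.48, SE, adjusted p = 0.0383), and the summed plasma cell level overlapped, at 6.43 to 8.79 with CDCA and 5.28 to 7.50 with DMSO. The summed level of the COS-1 markers overlapped, at 480.0 to 487 with CDCA and 443 to 534 with DMSO.

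**Figure D4:**
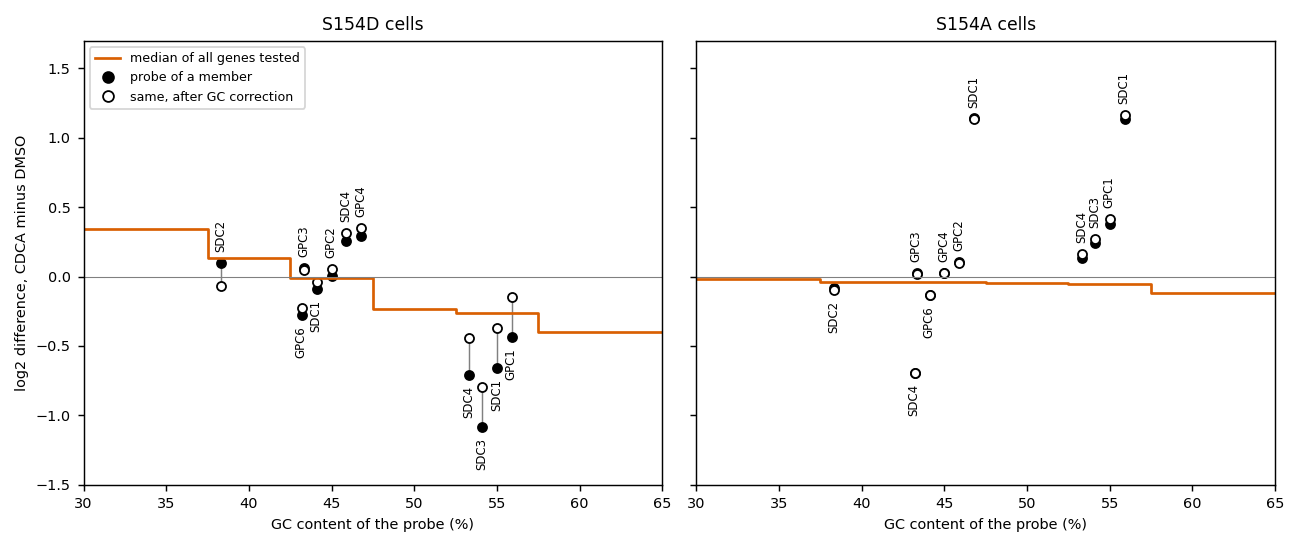
Change with CDCA (y axis, log2 difference) of the 11 member probes against the GC content of the probe (x axis, percent; probes of equal GC are set slightly apart sideways), in S154D cells (left) and S154A cells (right). Filled points are values as measured, open points the same after the correction on GC, and the stepped line is the median of all genes tested per GC range. In S154D cells the 4 GC-rich probes lie lowest and move up with the correction, whereas both SDC1 probes stay above 1 in S154A cells.

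Among the glypicans, none was called in any of the 5 comparisons. GPC1 came closest, and with quantile normalization it was called lower with CDCA in S154D cells (-0.49, limma, adjusted p = 0.0351) and lower in S154D than in S154A cells with CDCA (-0.72, adjusted p = 0.0327). It was at 1.49, 1.29 and 1.15 in S154D with CDCA, 1.71, 1.78 and 1.74 in S154D with DMSO, 1.77, 2.07 and 2.04 in S154A with CDCA, and 1.52, 1.83 and 1.38 in S154A with DMSO. In S154D cells all CDCA arrays were below all DMSO arrays, with a change of -0.44 ± 0.14 (SE, limma, adjusted p = 0.071), which was -0.15 after the correction on GC. Its change with CDCA in S154A cells was 0.41 ± 0.10 after that correction and was not called (SE, limma, adjusted p = 0.299). With CDCA present, the S154D arrays were below the S154A arrays by -0.65 ± 0.14 (SE, limma, adjusted p = 0.0716). The difference between its responses was -0.82 ± 0.20 (SE, adjusted p = 0.0848).

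With CDCA present, 4 of the 9 members had S154D arrays that did not overlap those of S154A, SDC1, SDC3, SDC4 and GPC1, all with S154D below, against 28.5% of all genes. SDC3 differed by -0.95 ± 0.25 (SE, limma, adjusted p = 0.0922) and SDC4 by -0.59 ± 0.17 (adjusted p = 0.104), and neither was called. SDC3 was called in this comparison when replicate 1 of S154D with CDCA was left out (-1.21, adjusted p = 0.0412).

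GPC4, which in rodents is released by astrocytes and promotes synapse formation, was at 2.51, 2.56 and 2.57 in S154D with CDCA, against 2.30, 2.42 and 2.04 in S154D with DMSO. All 3 CDCA arrays were above the DMSO arrays, but the change of 0.29 ± 0.18 was not called (SE, 95% interval -0.11 to 0.69, limma, adjusted p = 0.304). In S154A cells its arrays overlapped, at 2.37, 2.81 and 2.09 with CDCA and 2.36, 2.60 and 2.22 with DMSO.

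GPC6, needed for long bone growth in humans, was at -4.60, -4.49 and -4.63 in S154D with CDCA, against -4.22, -4.37 and -4.30 in S154D with DMSO. The CDCA arrays were the lower ones, and the change of -0.28 ± 0.15 was not called (SE, 95% interval -0.60 to 0.04, limma, adjusted p = 0.229). The S154A arrays overlapped, with means of -4.44 ± 0.16 with CDCA and -4.30 ± 0.29 with DMSO (SD, n = 3 each).

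GPC3, which restrains Hedgehog signalling in mouse and is a marker of liver cancer, averaged -1.69 ± 0.16 in S154D with CDCA, -1.75 ± 0.28 in S154D with DMSO, -1.64 ± 0.22 in S154A with CDCA and -1.67 ± 0.18 in S154A with DMSO (SD, n = 3 each). All 4 groups overlapped. Its change with CDCA was 0.06 ± 0.17 in S154D (SE, 95% interval -0.32 to 0.44) and 0.03 ± 0.17 in S154A cells (-0.35 to 0.41). GPC2, a glypican of developing neurons, averaged 1.44 ± 0.16 in S154D with CDCA, 1.44 ± 0.03 in S154D with DMSO, 1.41 ± 0.21 in S154A with CDCA and 1.30 ± 0.07 in S154A with DMSO. Its change with CDCA was 0.00 ± 0.12 in S154D (SE, 95% interval -0.27 to 0.28) and 0.11 ± 0.12 in S154A cells (-0.17 to 0.38). These intervals leave out changes of the size of that of SDC1 in S154A cells, but not smaller ones.

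The genes around the core proteins were described by 4 lists: enzymes that make and edit heparan sulfate, other heparan sulfate proteoglycans, proteases and partners that shed or bind syndecans and glypicans, and heparin-binding ligands with their receptors. With CDCA in S154A cells, limma called 0 of 28, 0 of 13, 0 of 26 and 0 of 25 genes tested, and 1, 0, 1 and 5 of them had an unadjusted p under 0.05, against 5.93% of all genes. The medians of the lists were -0.01, -0.02, 0.02 and 0.02, beside -0.04 for all genes. Among the enzymes the smallest p belonged to HS3ST1, which adds the sulfate group of the antithrombin binding site, at -0.33, to NDST1, which starts sulfation of the chain, at 0.22, and to PAPSS2, which makes the sulfate donor, at -0.19. Among the other proteoglycans TMEFF2 was at -0.34 on its brightest probe. Its other kept probe went the opposite way, at 0.90, and was not called (limma over kept probes, unadjusted p = 0.014, adjusted p = 0.881). Serglycin (under its old name PRG1) was at -0.17 and SPOCK1 at -0.29. Of the proteases and partners, MMP7, a protease that sheds SDC1 in mouse, was at -0.31, PRKCA at 0.23 and SDCBP2, a relative of the adaptor syntenin, at -0.25.

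The ligands held the larger changes with CDCA in S154A cells, none of them called. The chemokine CXCL12 was at 0.71 ± 0.15 on its brightest probe (SE, limma, adjusted p = 0.214), with 1.24 and 0.08 on its other probes. VEGF was at 0.61 ± 0.14 (adjusted p = 0.315), and its 4 probes lay between 0.51 and 0.67. TGFB2 was at -0.70 ± 0.24 (adjusted p = 0.799).

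With CDCA in S154D cells, 4 of 28 enzyme genes were called, 2 higher and 2 lower, beside 10.2% of all genes. HS3ST3A1, a further 3-O-sulfotransferase, rose by 0.92 ± 0.22 (SE, adjusted p = 0.0348) to -3.58 ± 0.35 with CDCA, against -4.50 ± 0.20 with DMSO (log2 level, SD). HS6ST2, a 6-O-sulfotransferase, rose by 0.40 ± 0.10 (adjusted p = 0.039) to -0.02 ± 0.13 with CDCA, against -0.42 ± 0.07 with DMSO. B3GAT3 and B4GALT7, which build the linker between the core protein and the chain, were lower, with changes of -0.67 ± 0.12 (adjusted p = 0.0275) and -0.68 ± 0.17 (adjusted p = 0.0359). The probes of the 2 that rose held 26.7% and 38.3% GC and those of the 2 that fell 60% and 55%.

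In the other lists serglycin rose by 0.52 ± 0.10 (SE, limma, adjusted p = 0.0278, probe GC 36.7%) and was 1 of 13 called, beside 10.2% of all genes. The lipoprotein receptor LRP1 fell, with a change of -0.61 ± 0.16 (adjusted p = 0.0392, GC 53.3%), and VEGF was called higher at 0.53 ± 0.14 (adjusted p = 0.0416). Thus 2 of 25 ligands and receptors were called, again beside 10.2% of all genes. The VEGF call came from a probe with 20% GC; the other 3 probes of VEGF read -0.42, -0.12 and -0.65 with 45%, 45% and 70% GC, and the last of these was called lower (limma over kept probes, adjusted p = 0.0259). CXCL12 and PRKCA each had a further probe that was called, at 1.37 with 25% GC (adjusted p = 0.0337) and -0.62 with 45% GC (adjusted p = 0.045). On their brightest probes none of the 26 shedding and partner genes was called by limma, 8 having an unadjusted p under 0.05, against 30% of all genes. After the correction on GC 0 of all 20355 genes were called, so none of the 7 called genes of the lists was, and this is not particular to them. VEGF was then at -0.40 and HS3ST3A1 at 0.28.

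In the comparisons between S154D and S154A cells, with CDCA or with DMSO, and in the difference between the responses, limma called 0 genes of all 4 lists on their brightest probes. Among the further probes of the genes named here, the VEGF probe with 70% GC was called lower in S154D than in S154A cells with CDCA (-0.88, limma over kept probes, adjusted p = 0.023) and in the difference between the responses (-1.16, adjusted p = 0.0409). With CDCA present, 5, 4, 5 and 10 genes of the lists had an unadjusted p under 0.05, against 23.6% of all genes. With DMSO 0, 0, 0 and 1 had one, and for the difference between the responses 5, 4, 4 and 6, against 22.3% of all genes.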

How the data were processed

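The deposited scanner files hold an intensity per spot that Agilent Feature Extraction background-subtracted and detrended, with 0 or 1 flags for spots well above background, saturated or outlying. The version was 9.5.3.1, per the file headers; the submitters' processing notes name version 12. The deposited series table holds the same intensities on all 45015 features, with no scaling between arrays. Gene names are those of the array design, and 10268 of the 20355 names tested are also green monkey RefSeq symbols (assembly mChlSab1.0), all 9 members among them.

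Processed signals were put on the log2 scale and each array's 75th percentile of non-control spots (signal 1235 to 2105) was subtracted. Outlier spots (66 to 196 per array) were left out and spots of a probe averaged, giving 41000 probes. A probe was kept where all 3 arrays of some group had it well above background (26898), and a name was read by its brightest such probe (20355 names). limma 3.58.1 fitted a mean for every group over the 12 arrays in R 4.3.3 (prior degrees of freedom 2.3, residual 8), with two-sided p-values adjusted by Benjamini-Hochberg within each of 5 comparisons and a call at adjusted p under 0.05. The probes of the members were also fitted among all kept probes. Scripts were tested on simulated data. The number of arrays, 3 per group, limits the precision.

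Slides were read from the barcodes in the scanner file names: 3 groups on slide 1, 2 on slide 2, 4 on slide 3 and 2 on slide 4. The headers give another scan day for slide 4. The alternatives were the series table, quantile normalization, normexp background correction with an offset of 50, no filter, another rule for several probes, slide or replicate number as a block, the compared groups alone, a correction on probe GC, and leaving out each slide or array. The members and lists were chosen with earlier results of these data known. All 9 members are named, with every list gene called in any comparison and otherwise the 3 with the smallest p for CDCA in S154A cells, and the 5 gene symbols most correlated with SDC1. Lists were described by counts and medians, with no test of a list.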

Additional observations from a re-analysis of the deposited data

Results flagged for a closer look

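The response of SDC1 to CDCA in S154D cells minus that in S154A cells was -1.23 on the log2 scale, past the threshold by the test of the difference itself (limma, adjusted p = 0.0381). The call held under 9 of 29 alternatives and ended, for example, with slide as a fixed block (adjusted p = 0.3), the replicate block (0.0775) and the correction on GC (0.0531). The dimmer SDC1 probe gave -1.79 (limma over kept probes, adjusted p = 0.0124) and, after the correction on GC, -1.54 (adjusted p = 0.0329). No other member reached an adjusted p under 0.05 in this test, and 4 of 9, SDC1 among them, had an unadjusted p under 0.05, against 22.3% of all genes.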

How the results depend on the processing

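Over 29 alternatives no value past the threshold changed sign. The rise of SDC1 with CDCA in S154A cells was called under 24. It missed the threshold with the unscaled series table (1.04), slide as a fixed block (1.17), the compared groups alone (1.14), without slide 1 (1.11) and without slide 3 (1.03), where 0 members were called. With 1 array left out it was 1.05 to 1.25, and 1 member was called each time. The difference between S154D and S154A cells with CDCA missed it with the series table (-0.997), slide block (-1.10), those groups alone (-1.04) and without slide 1 (-1.02), 2 (-1.04) or 3 (-1.01). Leaving out an array gave -1.07 to -1.004. Members called were 0 under those settings (without slides 1, 2 and 3 as well), 2 with quantile normalization and 1 to 2 with an array left out. The difference between the responses was called under 9. It missed the threshold with the series table (-0.95), no filter (-1.23), slide block (-1.33), the replicate block (-1.23, adjusted p = 0.0775), the correction on GC (-1.17), and without slide 1 (-1.19), 2 (-1.35), 3 (-1.21) or 4 (-1.20), again with 0 members called. It was -1.34 to -1.14, with 0 to 1 members called, when an array was left out. The dimmer SDC1 probe stayed called in this difference with the correction on GC (-1.54, limma over kept probes, adjusted p = 0.0329). With the series table the SDC1 changes that were not called moved to 0.0885 (CDCA in S154D) and -0.0453 (S154D against S154A with DMSO).

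For CDCA in S154D cells, 2 members were called as reported, 3 with quantile normalization (GPC1 added), 1 with the mean of a gene's probes, 0 to 2 with an array left out, and 0 with the series table, no filter, slide block, replicate block, the compared groups alone, the correction on GC or without slide 1, 2 or 3. Replicate numbers did not pair the arrays: same-numbered deviations correlated at -0.23 to 0.36, and 6 of 12 arrays correlated best with their own number. Over all genes the calls ranged from 0 to 32 for CDCA in S154A cells (27 as reported), 0 to 3111 in S154D cells (2077), 0 to 265 for S154D against S154A with CDCA (82), 0 to 1 with DMSO (0) and 0 to 131 for the difference between the responses (28). Fewer arrays remained for the estimate of spread where arrays, slides or groups were left out. Why the number of calls differed was not tested for any setting. With 3 arrays a group, changes inside the printed intervals could not be resolved.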
